A study of Mus musculus with 18 samples.

Results

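The 10 genes described here have parts in the handling of fat inside the enterocyte or in the lipoproteins that carry fat away. They are the fatty acid binding proteins Fabp1 and Fabp2, the apolipoproteins Apoa1, Apoa4, Apob, Apoc2 and Apoc3, the lipid transfer protein gene Mttp, the droplet coat gene Plin2 and the triglyceride synthase gene Dgat1. They were taken by symbol, and each was read from its brightest probe set, by mean over the 18 arrays, among those annotated to that symbol alone. All 10 passed the filter on dim probe sets, out of 8631 genes tested. They were measured in ileum, the far end of the small intestine, of C57BL/6 mice, an inbred laboratory strain. The ages were postnatal days 4, 7, 9, 11, 24 and 32, with 3 individual mice and so 3 arrays at each age, 18 in all. No treatment, mutation, sex, litter or diet is given. Each sample was a full-thickness piece of gut, so muscle, vessels, nerve and immune cells contributed RNA beside the epithelium. Days 24 and 32 (6 arrays) are called after weaning and days 4 to 11 (12 arrays) before weaning, from general knowledge of laboratory mice. In such tissue RNA, fewer cells of a type and less RNA per cell cannot be told apart.

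Suckling mice live on milk, whose energy comes largely from fat, and weaning onto chow brings a diet rich in starch. Enterocytes take up fatty acids and monoglyceride, bind the fatty acids to small cytosolic carrier proteins and join them again into triglyceride in the endoplasmic reticulum. The microsomal transfer protein loads this fat onto apolipoprotein B, and the particle gathers further apolipoproteins before it leaves for the lymph as a chylomicron. Triglyceride that is not exported is held in cytosolic droplets. The ileum lies beyond the main site of fat absorption in adults.

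Values are log2 levels per probe set, so that a difference of 1 is a doubling. Levels in the table ran from 1.68 to 13.71, and array medians from 3.88 to 3.97. The level of 1 probe set cannot be set against that of another, because probes differ in brightness. A summed log2 level is here the log2 of the sum of the levels on the linear scale, so the brightest probe sets of a list dominate it. The epithelial origin of the tissue was visible at every age: the summed log2 level of 12 epithelial markers was 15.27 to 15.61 after weaning, against 14.61 to 14.79 before it, and 8 of the 12 were higher, 3 lower after weaning. Of these, Krt20, a keratin of mature enterocytes, differed most (log2 difference 4.36 ± 0.09), followed by the aminopeptidase Anpep (2.78 ± 0.10) and the keratin Krt19 (1.70 ± 0.08). Controls added during hybridization split the arrays into 10 with higher levels (9.56 to 9.99) and 8 with lower levels (8.74 to 9.05). The higher set held all 6 arrays after weaning and 4 of the 12 before it. Poly-A controls were at 4.60 to 5.81 after weaning, against 3.37 to 4.18 before, and the 18S ribosomal RNA control at 7.01 to 10.85 against 4.93 to 8.19. Xist, expressed from the inactive X chromosome of females, was low on 5 of 6 arrays after weaning and on 3 of 12 before. Calls of the 10 genes that were lost with the hybridization group or the Xist level taken into account are given beside the result. No alternative used the poly-A or 18S controls. The poly-A levels of the stages did not overlap, so that difference and the stage cannot be told apart.

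All 10 genes differed between ages by limma's F test over the 6 ages (adjusted p = 0.0313 for Apoa1, 0.00321 for Mttp and smaller for the others), where 68.3% of all genes tested were called. The call of Apoa1 was lost with the hybridization group as a block (adjusted p = 0.149), with the Xist level as a covariate (0.269), with quantile or cyclic loess normalization (0.216 and 0.201) and without any 1 of 5 arrays (0.0517 to 0.142). With the mean of probe sets Dgat1 was not called (adjusted p = 0.487). Between the stages, 8 of the 10 were lower and 2 were higher after weaning. Among all genes tested, 41.8% were lower and 31.1% higher. The median log2 difference of the 10 genes was -1.59, beside -0.07 over all genes. Arrays of the stages did not overlap for 5 of the 10, which are Fabp1, Apoa4, Apoc2, Apoc3 and Plin2, while 37.2% of all genes tested showed no overlap. On the 10 arrays with higher hybridization controls alone, 8 of the 10 genes were called, without Apoa1 and Mttp. That set holds no array of day 9, so the stage before weaning was there the mean of days 4, 7 and 11.

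**Figure D1:**
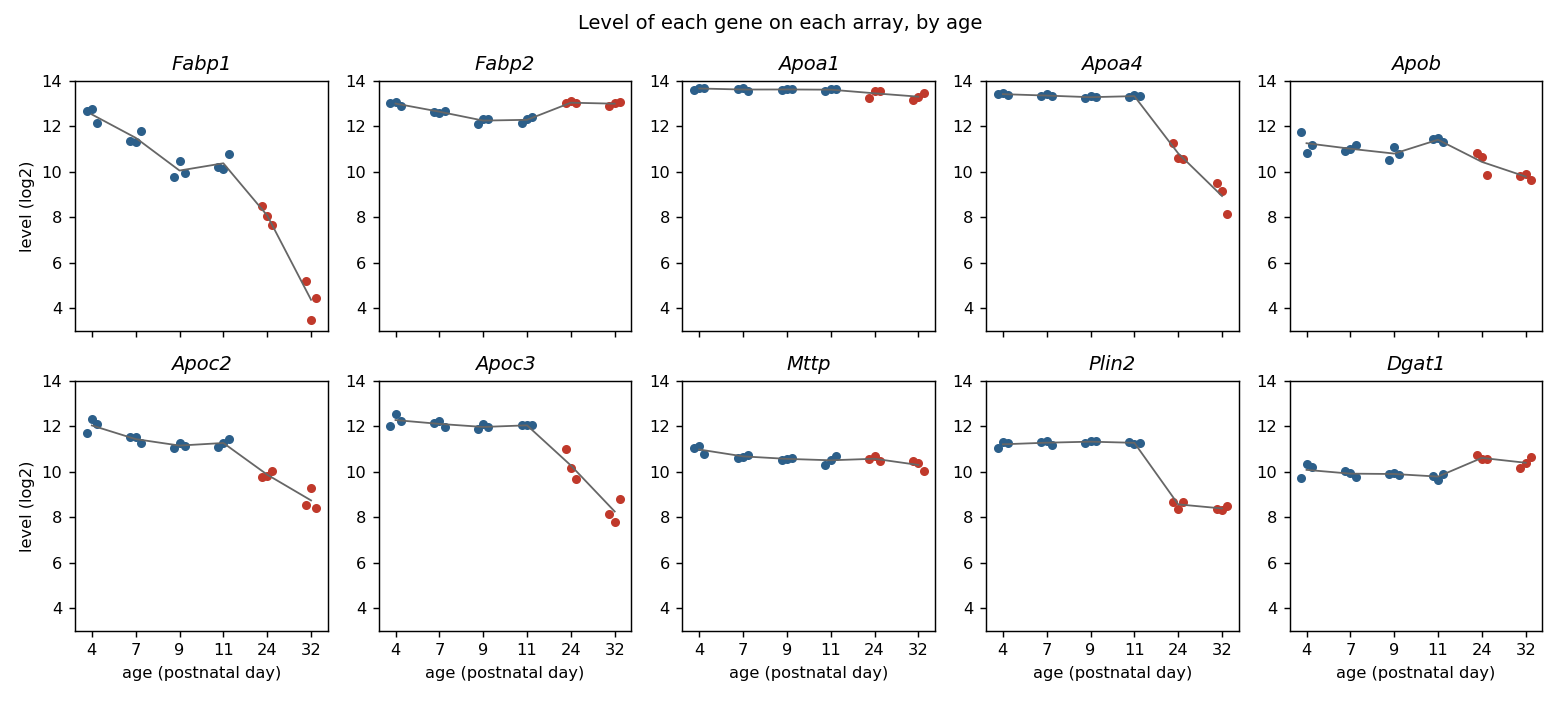
Log2 level of each of the 10 genes (vertical axis) against postnatal day (horizontal axis, ages evenly spaced and not to scale). Points are single arrays, 3 per age, red after weaning and blue before, and the line joins age means. Fabp1, Apoa4, Apoc2, Apoc3 and Plin2 lie below all earlier arrays on days 24 and 32, Fabp2 dips around days 9 and 11, and Apoa1 and Mttp stay within a narrow band.

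The 2 cytosolic carriers diverged. Fabp1 encodes the liver-type carrier, which in the rat intestine also takes part in the budding of chylomicron precursors, and Fabp2 encodes the intestinal type. Because the pair separated after weaning, both promoters are shown, from RefSeq on GRCm38.p6 and covering 250 bases before to 50 bases after the annotated start. The Fabp1 window is chr6:71199629-71199928 on the plus strand and the Fabp2 window is chr3:122894822-122895121 on the plus strand. Capitals mark matches on either strand to any of 3 motifs. The TATA box was searched as TATAAA. The hexamer bound by nuclear receptors was searched as AGGTCA, which reads TGACCT where the match lies on the other strand. The core of the HNF1 site was searched as GTTAAT.
Fabp1: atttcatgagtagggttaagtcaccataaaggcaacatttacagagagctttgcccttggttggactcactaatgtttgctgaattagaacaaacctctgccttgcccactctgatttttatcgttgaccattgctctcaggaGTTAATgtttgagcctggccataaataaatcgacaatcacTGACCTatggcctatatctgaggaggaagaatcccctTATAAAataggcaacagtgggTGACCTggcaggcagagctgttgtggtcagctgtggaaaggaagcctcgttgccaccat
Fabp2: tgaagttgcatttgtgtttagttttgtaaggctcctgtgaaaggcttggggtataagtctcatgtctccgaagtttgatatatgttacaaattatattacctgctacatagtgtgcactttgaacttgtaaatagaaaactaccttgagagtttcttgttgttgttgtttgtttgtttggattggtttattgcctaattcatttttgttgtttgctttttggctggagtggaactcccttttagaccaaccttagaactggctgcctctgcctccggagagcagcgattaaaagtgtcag
The Fabp1 window holds TATAAA at -30 to -25, AGGTCA at -67 to -62 and at -9 to -4, and GTTAAT at -107 to -102, counted from the annotated start as 0. The Fabp2 window holds none of these letters. Over all 32851 windows of this length, 13.6% hold TATAAA, 16.3% AGGTCA and 7.1% GTTAAT on either strand, so such matches are common and describe only the letters of these windows.

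Fabp1 read 12.70, 12.75 and 12.14 on day 4, 11.36, 11.32 and 11.81 on day 7, and 9.77, 10.46 and 9.93 on day 9. It read 10.21, 10.14 and 10.78 on day 11, 8.51, 8.07 and 7.65 on day 24, and 5.18, 3.49 and 4.42 on day 32. The arrays of neighbouring levels overlapped only between days 9 and 11, and both later ages lay below every earlier array. Fabp1 was 29.7-fold lower after weaning (log2 difference -4.89 ± 0.20, SE, n = 6 against 12; limma, adjusted p = 1.51e-13). On the arrays with higher hybridization controls alone the difference was -5.36. Day 9, the age with the lowest mean before weaning, has no array in that set, so the ages compared differ. It was already 4.44-fold lower on day 11 than on day 4 (-2.15 ± 0.33, adjusted p = 0.00183), 4.92-fold lower on day 24 than on day 11 (-2.30 ± 0.33, adjusted p = 1.03e-05) and a further 13.1-fold lower on day 32 than on day 24 (-3.71 ± 0.33, adjusted p = 6.37e-07). The day 32 levels lie near the array medians, so the size of the last step depends on the background correction. The other probe set of Fabp1 gave a stage difference of -4.90.

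Fabp2 read 13.04, 13.07 and 12.91 on day 4, 12.65, 12.60 and 12.70 on day 7, and 12.11, 12.32 and 12.34 on day 9. It read 12.17, 12.31 and 12.40 on day 11, 13.01, 13.11 and 13.01 on day 24, and 12.91, 13.04 and 13.06 on day 32. Days 4, 24 and 32 overlapped, day 7 lay below them, and days 9 and 11 overlapped at the bottom. Fabp2 fell by 0.72 on the log2 scale on day 11 relative to day 4 (SE 0.10, 1.64-fold, adjusted p = 0.000808) and rose by 0.75 ± 0.10 on day 24 relative to day 11 (1.69-fold, adjusted p = 3.64e-06). Day 32 differed from day 24 by -0.04 ± 0.10 (adjusted p = 0.807). Over the stages it was 1.39-fold higher after weaning (0.47 ± 0.06, adjusted p = 1.25e-06). Its probe set was among the brightest, with 7 to 20 probe sets above it after weaning and 13 to 156 before.

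Before weaning the carriers moved side by side, with a Pearson r of 0.98 over the 12 arrays of days 4 to 11, and over all 18 arrays r was -0.32. These arrays share their normalization and only 4 and 6 ages, so the r values are descriptions. The log2 ratio of Fabp1 to Fabp2 within an array had a range of -9.55 to -4.50 after weaning and of -2.41 to -0.32 before. Its mean changed by -5.37 after weaning (exact two-sided permutation test over 18564 splits of the arrays, p = 5.39e-05, the smallest these splits can give; adjusted p = 6.73e-05 over 5 pairs). All 6 arrays after weaning were below all 12 before.

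Apoa1, Apoc3 and Apoa4 are neighbours on mouse chromosome 9, with Apoc3 between the others and Apoa5 beyond Apoa4. Apoa1 encodes the main protein of high-density lipoprotein, which enterocytes also put on chylomicrons. Apoa4 encodes an apolipoprotein that the gut makes during fat absorption. The promoters of Apoa1 and Apoa4 are given because these neighbours changed so unequally, from RefSeq on GRCm38.p6 with the same extent, at chr9:46228380-46228679 and chr9:46240594-46240893, both on the plus strand. The table used here has no entry for Apoc3 or Dgat1.
Apoa1: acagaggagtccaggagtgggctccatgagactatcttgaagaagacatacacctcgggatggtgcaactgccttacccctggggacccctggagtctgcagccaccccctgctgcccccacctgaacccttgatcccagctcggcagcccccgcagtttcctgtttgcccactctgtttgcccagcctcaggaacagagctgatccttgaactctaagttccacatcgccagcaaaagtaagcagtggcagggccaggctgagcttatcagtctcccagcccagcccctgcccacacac
Apoa4: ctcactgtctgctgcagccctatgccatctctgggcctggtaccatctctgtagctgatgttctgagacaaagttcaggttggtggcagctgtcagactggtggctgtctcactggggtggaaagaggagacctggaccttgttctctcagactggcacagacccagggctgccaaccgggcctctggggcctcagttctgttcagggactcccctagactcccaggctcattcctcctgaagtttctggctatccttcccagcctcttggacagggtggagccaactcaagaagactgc
Neither window holds any of the motifs searched. Beside the 3 above, an HNF4-type site was searched on both strands as CAAAGTCCA, which is found in 0.475% of all windows. A direct repeat core was searched as CAAAGGTCA, which ends in the nuclear receptor hexamer and is found in 0.478%. The GATA site was searched as AGATAA and is found in 11.2%. The E box was searched as CACGTG and is found in 7.15%.

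Apoa4 read near the top of the scale up to day 11 and was lower on day 24 and lower again on day 32. It read 13.42, 13.48 and 13.37 on day 4, 13.33, 13.41 and 13.34 on day 7, 13.23, 13.34 and 13.29 on day 9, and 13.30, 13.38 and 13.33 on day 11. It read 11.28, 10.61 and 10.55 on day 24 and 9.50, 9.16 and 8.15 on day 32. The earlier ages overlapped one with the next, day 24 lay below all of them and day 32 below day 24. Apoa4 was 11.1-fold lower after weaning (-3.48 ± 0.15, adjusted p = 2.00e-13). It was 5.75-fold lower on day 24 than on day 11 (-2.52 ± 0.24, adjusted p = 6.08e-08) and 3.67-fold lower on day 32 than on day 24 (-1.88 ± 0.24, adjusted p = 4.77e-05). Day 11 differed from day 4 by -0.09 ± 0.24 (adjusted p = 0.889). Before weaning only 4 to 8 probe sets were brighter on any array, so differences among the early ages, and the folds against them, may be compressed, which was not tested. Its other probe set gave a stage difference of -4.34, larger than that of the brighter one. The probe sets used for Apoa4 and Apoa1 are of a type in which some probes may also match other transcripts.

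Apoa1 moved little. Its lowest, median and highest levels were 13.16, 13.39 and 13.55 after weaning, against 13.54, 13.64 and 13.71 before, and the stages overlapped by a narrow margin. The stage difference was -0.25 ± 0.06 (1.19-fold lower, adjusted p = 0.00173), and the 4 probe sets of the gene gave -0.24 to -0.29. Its probe set was the brightest of all 45101 on each of the 12 arrays before weaning, and had 0 to 6 above it after weaning. The values lie at the top of the scale, where a difference may be compressed, which was not tested. The call was lost after quantile normalization (-0.10, adjusted p = 0.0707) and on the arrays with higher hybridization controls (-0.20, adjusted p = 0.151). No step between adjacent ages was called for it: day 24 minus day 11 was -0.16 ± 0.10 (adjusted p = 0.196).

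Apoc3 encodes an inhibitor of lipoprotein lipase, the vessel enzyme that unloads chylomicrons. Its levels from day 4 to day 11 ran from 11.87 to 12.55. It read 11.00, 10.15 and 9.69 on day 24 and 8.14, 7.80 and 8.83 on day 32. The 4 early ages overlapped in their neighbours, and days 24 and 32 each lay lower without overlap. Apoc3 was 7.15-fold lower after weaning (-2.84 ± 0.16, adjusted p = 1.41e-11), 3.41-fold lower on day 24 than on day 11 (-1.77 ± 0.26, adjusted p = 1.39e-05) and 4.08-fold lower on day 32 than on day 24 (-2.03 ± 0.26, adjusted p = 5.28e-05).

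The 3 neighbours changed by unequal amounts. The log2 ratio of Apoa4 to Apoa1 within an array had a range of -5.33 to -1.995 after weaning, against -0.38 to -0.20 before. The difference was -3.23 (exact permutation test, p = 5.39e-05, the smallest possible, adjusted p = 6.73e-05). For Apoc3 to Apoa1 the ranges were -5.50 to -2.28 after weaning and -1.74 to -1.16 before, with a difference of -2.59 (exact permutation test, same p and adjusted p). All arrays after weaning were below all arrays before in both ratios. Since Apoa1 was at the top of the scale, compression of it, or of Apoa4 before weaning, may bear on these ratios and was not tested.

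**Figure D2:**
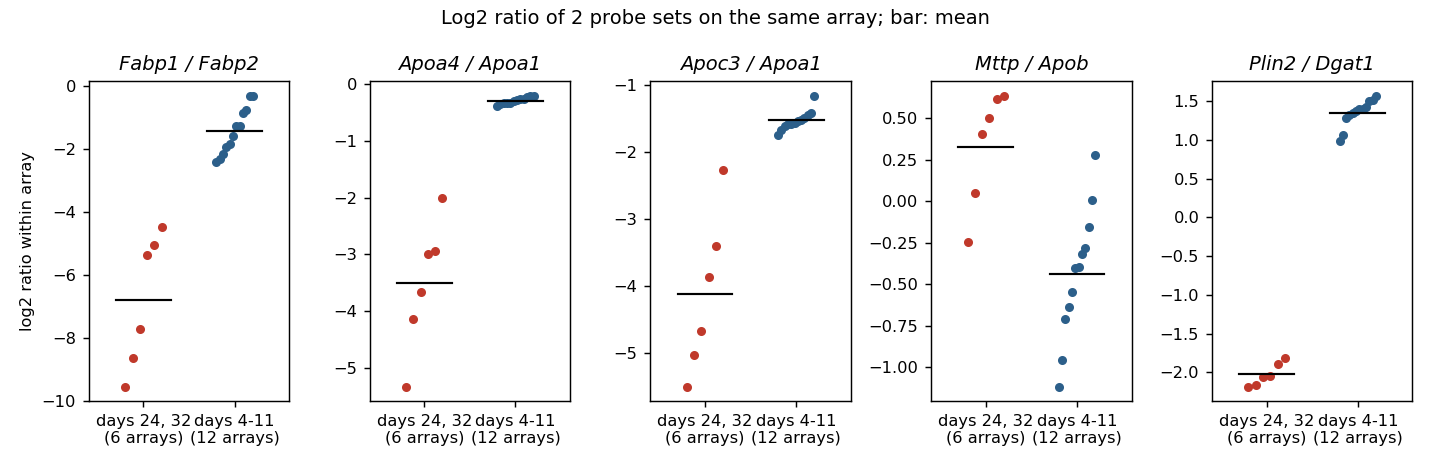
Log2 ratio of 2 probe sets on the same array (vertical axis, a different scale in each panel) for 5 pairs, days 24 and 32 left (6 arrays, red) and days 4 to 11 right (12 arrays, blue), with the mean as a bar. The ratios of Fabp1 to Fabp2, Apoa4 to Apoa1, Apoc3 to Apoa1 and Plin2 to Dgat1 were lower after weaning with no overlap, and that of Mttp to Apob was higher with overlap. Only the shift within a panel can be read, not the level.

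Apoc2 encodes the activator of lipoprotein lipase and lies next to Apoc4 on chromosome 7. Its promoter, at chr7:19677892-19678191 on the minus strand and printed in the direction of transcription, is shown because Apoc2 shared with Fabp1 the decline between days 4 and 11 and both of the later steps.
Apoc2: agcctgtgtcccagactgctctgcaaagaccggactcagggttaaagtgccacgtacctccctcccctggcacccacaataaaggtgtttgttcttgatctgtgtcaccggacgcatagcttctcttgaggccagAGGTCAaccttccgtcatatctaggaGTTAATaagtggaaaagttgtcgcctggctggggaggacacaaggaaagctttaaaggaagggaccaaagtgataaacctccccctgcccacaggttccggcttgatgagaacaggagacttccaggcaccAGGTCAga
The capitals mark AGGTCA at -115 to -110 and 42 to 47 and GTTAAT at -89 to -84, motifs that the Fabp1 window also holds. Over all windows 16.3% hold AGGTCA and 7.1% GTTAAT, so here too the matches describe only the letters. Whether they bear on the levels was not tested. Plin2 was the only other gene of the 8 with a window here to hold AGGTCA, at -218 to -213, and held CACGTG at -4 to 1, and Apob held TATAAA at -60 to -55.

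Apoc2 read 11.72, 12.32 and 12.09 on day 4, 11.53, 11.53 and 11.26 on day 7, 11.03, 11.29 and 11.15 on day 9, and 11.10, 11.26 and 11.45 on day 11. It read 9.78, 9.83 and 10.02 on day 24 and 8.53, 9.27 and 8.43 on day 32. Day 4 lay above the other ages, days 7, 9 and 11 overlapped, and days 24 and 32 each lay lower. Apoc2 was 4.50-fold lower after weaning (-2.17 ± 0.12, adjusted p = 6.57e-12). Day 24 was 2.63-fold lower than day 11 (-1.40 ± 0.19, adjusted p = 5.38e-06) and day 32 was 2.19-fold lower than day 24 (-1.13 ± 0.19, adjusted p = 0.000759). Day 11 was 1.71-fold lower than day 4 (-0.77 ± 0.19, adjusted p = 0.0333), a call that was lost without day 4 replicate 2 (-0.64, adjusted p = 0.163), day 4 replicate 3 (adjusted p = 0.115), day 11 replicate 1 (adjusted p = 0.126) or day 11 replicate 2 (adjusted p = 0.0871), and with only the arrays of these ages in the fit (adjusted p = 0.0972).

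Apob encodes the structural protein of the chylomicron, which the gut makes in a short form through RNA editing by Apobec1. It read 11.74, 10.84 and 11.20 on day 4 and 10.53, 11.10 and 10.77 on day 9. It read 11.44, 11.48 and 11.32 on day 11, 10.83, 10.63 and 9.85 on day 24, and 9.83, 9.90 and 9.64 on day 32. Day 11 had the highest mean, neighbouring ages in the order of levels overlapped throughout, day 24 overlapped with day 9 and lay below days 4, 7 and 11, and day 32 lay below all arrays before weaning. Apob was 2.01-fold lower after weaning (-1.01 ± 0.14, adjusted p = 3.20e-06), with day 24 1.97-fold lower than day 11 (-0.98 ± 0.23, adjusted p = 0.00122). Day 32 differed from day 24 by -0.65 ± 0.23 (adjusted p = 0.0693). That difference was called without day 24 replicate 3, the lowest of its age (-0.94, adjusted p = 0.0089), or without day 4 replicate 1 (adjusted p = 0.04). A dimmer probe set of Apob, with a mean of 5.99, gave -0.68 between the stages but 0.54 for day 32 minus day 24.

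Mttp encodes the large subunit of the transfer protein that lipidates apolipoprotein B. Its lowest, median and highest levels were 10.04, 10.47 and 10.68 after weaning, against 10.32, 10.64 and 11.12 before. The stages overlapped widely, and only day 4 stood clear of the next age in the order of levels. The stage difference was -0.25 ± 0.08 (1.19-fold lower, adjusted p = 0.00826), and it was not called with cyclic loess normalization (-0.16, adjusted p = 0.0696), with the Xist level as a covariate (-0.19, adjusted p = 0.119) or on the arrays with higher hybridization controls (-0.28, adjusted p = 0.0672). Day 11 minus day 4 was -0.47 ± 0.13 and narrowly missed the threshold (adjusted p = 0.0507), while it passed when day 11 replicate 3, day 24 replicate 3, day 32 replicate 1 or day 32 replicate 3 was left out (adjusted p between 0.0284 and 0.0486), with a filter at log2 8 (0.0430), with median centring (0.0444) and with the trend and robust options of eBayes (0.0323). Day 24 minus day 11 was 0.07 ± 0.13 (adjusted p = 0.668). Its second probe set gave a stage difference of -0.16.

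The pair that joins fat to protein shifted in ratio. The log2 ratio of Mttp to Apob ranged from -0.25 to 0.64 after weaning, against -1.12 to 0.28 before, so the ranges overlapped. Its mean was 0.76 higher after weaning (exact permutation test, p = 0.00113, adjusted p = 0.00113).

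Plin2 encodes the protein that coats cytosolic lipid droplets. Across the 12 arrays before weaning it stayed between 11.06 and 11.37, with a median of 11.30. It read 8.68, 8.36 and 8.66 on day 24 and 8.38, 8.32 and 8.47 on day 32. The early ages overlapped among themselves, as did the later pair, and nothing lay between the stages. Plin2 was 6.96-fold lower after weaning (-2.80 ± 0.07, adjusted p = 5.19e-17). Most of the difference stood on day 24, 6.55-fold below day 11 (-2.71 ± 0.11, adjusted p = 4.66e-13), whereas day 32 minus day 24 was -0.18 ± 0.11 (adjusted p = 0.293). Macrophages, which can also hold lipid droplets, were measured through 7 markers, of which 1 was higher (Cd14, 2.38), 2 lower (Csf1r, -2.90, and Cd68, -1.24) and 4 not called (C1qa, C1qb, C1qc and Mrc1) after weaning, with a median difference of -0.08. Their summed log2 level was 9.72 to 10.15 after weaning, against 11.60 to 11.78 before. That sum is carried mainly by Csf1r, whose mean was 8.51 after weaning and 11.40 before. Adgre1, below the filter, was at 5.12 to 5.32 after weaning, against 5.24 to 5.45 before. Their part in the result was not tested.

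Dgat1 encodes an enzyme of the last step of triglyceride synthesis. It read 9.74, 10.33 and 10.20 on day 4, 9.81, 9.64 and 9.92 on day 11, 10.74, 10.55 and 10.56 on day 24, and 10.19, 10.37 and 10.64 on day 32. Days 7 and 9 ran from 9.77 to 10.02. Days 24 and 32 overlapped, and day 32 overlapped with day 4, while day 24 lay above all earlier arrays. Dgat1 was 1.50-fold higher after weaning (0.58 ± 0.09, adjusted p = 1.11e-05) and 1.77-fold higher on day 24 than on day 11 (0.82 ± 0.14, adjusted p = 9.58e-05). Its dimmer probe set, with a mean of 5.73, went the opposite way (stage difference -0.78), and the mean of both sets gave -0.10 (adjusted p = 0.468). The direction therefore rests on the brighter probe set, which is of a type whose probes may also match other transcripts. The log2 ratio of Plin2 to Dgat1 ranged from -2.19 to -1.81 after weaning, against 0.99 to 1.57 before, a difference of -3.38 (exact permutation test, p = 5.39e-05, adjusted p = 6.73e-05).

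**Figure D3:**
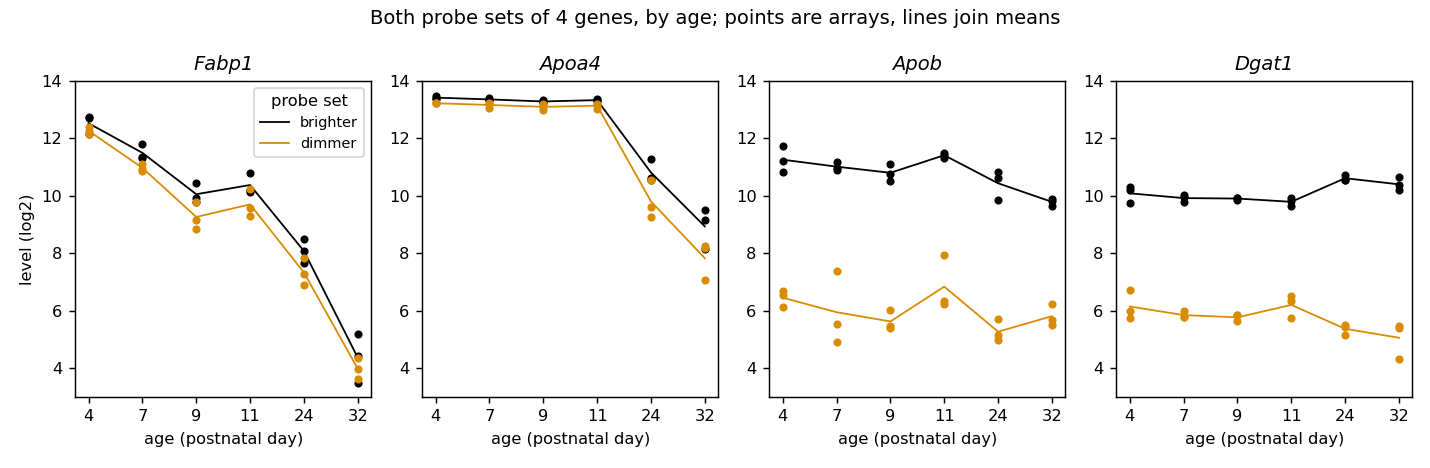
Log2 level of both probe sets of Fabp1, Apoa4, Apob and Dgat1 (vertical axis) by postnatal day (horizontal axis, evenly spaced); black is the brighter set used here and orange the dimmer one, with points for arrays and lines through age means. Both sets of Fabp1 run in parallel, and both sets of Apoa4 fall after weaning, the dimmer one further. The dimmer sets of Apob and Dgat1 lie near 6. That of Apob falls from day 11 to day 24 like the brighter one but is higher again on day 32. That of Dgat1 falls from day 11 to day 24, where the brighter one rises.

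Seen by step, the decline was spread unevenly over time. From day 4 to day 11, 3 genes were lower (Fabp1, Fabp2 and Apoc2) and 0 higher by limma, where 1.54% of all genes tested were lower and 1.34% higher. At an unadjusted p below 0.05, 4 were lower and 0 higher, beside 10.6% lower and 8.12% higher of all genes. From day 11 to day 24, 6 were lower and 2 higher, beside 32.3% lower and 26.9% higher of all genes. From day 24 to day 32, 4 were lower (Fabp1, Apoa4, Apoc3 and Apoc2) and 0 higher, beside 6.22% lower and 6.11% higher, and at an unadjusted p below 0.05, 6 were lower and 0 higher, beside 13.9% of all genes in each direction. The comparisons share day 11 or day 24, so their counts are not independent. Of these steps Plin2 was called in the middle one, and whether steps differed from each other was not tested.

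**Figure D4:**
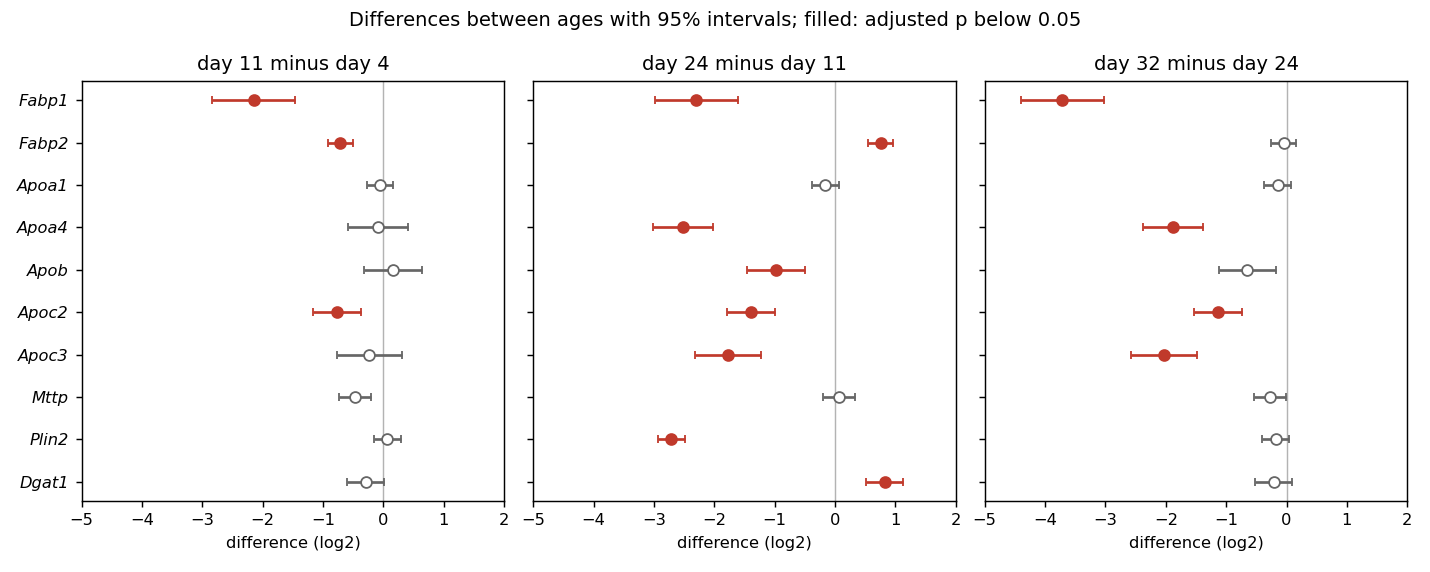
Log2 difference (horizontal axis) of each gene, day 11 minus day 4, day 24 minus day 11 and day 32 minus day 24, with 95% intervals. Filled red points have an adjusted p below 0.05. Fabp1 and Apoc2 were lower in all 3 panels, Apoa4 and Apoc3 in the middle and right ones, Plin2 and Apob in the middle one, and Fabp2 was lower in the left panel and higher in the middle one.

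The steps between adjacent early ages gave 0 called members by limma. For day 7 minus day 4, 4 members had an unadjusted p below 0.05, all lower (Fabp1, Fabp2, Apoc2 and Mttp), beside 1.49% lower and 4.44% higher of all genes at that threshold. After adjustment 0.0811% of all genes were called. For day 9 minus day 7, Fabp1 differed by -1.44 ± 0.33 and Fabp2 by -0.39 ± 0.10 (unadjusted p below 0.05, adjusted p = 0.411 and 0.606), beside 1.49% lower and 0.915% higher of all genes at the unadjusted threshold and 0.0463% called after adjustment. For day 11 minus day 9, Apob differed by 0.61 ± 0.23 (unadjusted p = 0.0149, adjusted p = 0.589), beside 1.48% higher and 5.56% lower of all genes at the unadjusted threshold and again 0.0463% called after adjustment. With weights for the arrays, 2 members were called in the first and 2 in the second of these steps.

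By Pearson r over the 18 arrays, the genes closest in pattern to Fabp1 were Leap2, Rbp2, Smlr1, Vwce and Ms4a10 (r from 0.959 to 0.975), and those closest to Apoa4 were Rragd, Npl, Gpr155, Enpp3 and Smlr1 (r from 0.981 to 0.991). Plin2 was closest to Folr1, Slc17a5, Hif3a, Rab11fip5 and Dct (r from 0.997 to 0.998). For Apob the closest were Rhoj, Epb41l3, Dll1, Kif21a and Retreg1 (r from 0.889 to 0.925), and for Dgat1 they were Fam234a, Golt1a, Atg9a, Dbndd2 and Susd2 (r from 0.943 to 0.960). All arrays share the ages and the normalization, and these values are descriptions without a test.

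The rest of the fat route did not move as 1 block. Of 13 genes of fatty acid and sterol uptake 5 were higher, 5 lower and 3 not called after weaning, with a median difference of -0.04. The acyl-CoA synthetase Acsl3 was 3.87-fold lower (-1.95 ± 0.12), the fatty acid receptor Cd36 1.79-fold lower (-0.84 ± 0.14) and the lipoprotein receptor Scarb1 1.70-fold lower (-0.77 ± 0.09). The stages overlapped for Cd36, whose mean was 7.16 on day 11, 5.84 on day 24 and 6.83 on day 32. Its last step was a rise of 0.98 (limma, adjusted p = 0.0113). Of 11 genes of triglyceride resynthesis 6 were higher and 4 lower (median 0.18). Dgat2, the other diglyceride acyltransferase, was 4.63-fold lower (-2.21 ± 0.09, adjusted p = 8.72e-14). Of the acyltransferases that make phosphatidic acid, Agpat3 was 3.72-fold lower (-1.90 ± 0.10) and Agpat2 was 2.97-fold higher (1.57 ± 0.08). Of 10 genes of lipid droplets and triglyceride breakdown 4 were higher and 6 lower (median -0.38). The droplet protein Hsd17b13 was 14.5-fold lower (-3.86 ± 0.11) and the droplet coat genes went both ways, with Plin3 2.68-fold lower (-1.42 ± 0.08) and Plin4, a coat protein of adipocytes, 2.82-fold higher (1.50 ± 0.11).

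Among 20 further genes of chylomicron assembly and secretion 9 were higher, 3 lower and 8 not called (median 0.21). The coat protein gene Sec23b was 1.81-fold higher (0.86 ± 0.08), the Apob editing enzyme Apobec1 1.73-fold higher (0.79 ± 0.10) and the lipidation factor Tm6sf2 1.48-fold higher (0.56 ± 0.10). The stages overlapped for Tm6sf2. These changes ran opposite to that of Apob, while the 3 lower genes, Sec24a (-0.55), P4hb (-0.50) and Sar1a (-0.27), went the same way as Apob. Of 6 further apolipoproteins and plasma lipid factors 4 were higher and 1 lower (median 0.43): Lpl, the lipase that Apoc2 activates, was 2.65-fold higher (1.41 ± 0.18), the apolipoprotein gene Clu 2.29-fold higher (1.19 ± 0.34) and Gpihbp1, the capillary anchor of the lipase, 1.72-fold lower (-0.78 ± 0.11). Clu overlapped between the stages, at 6.82 to 10.40 after weaning against 6.49 to 7.62 before, and so did Lpl. Lpl was already higher on day 11 than on day 4 (1.63, limma, adjusted p = 0.00505). Its day 24 minus day 11 was 0.11 (adjusted p = 0.776) and its day 32 minus day 24 was 0.92 (adjusted p = 0.0472). Of 5 adipocyte markers, a list that includes Lpl, 4 were higher after weaning and 1, Cidec, was lower (-1.33, adjusted p = 6.56e-08). Their summed log2 level was 10.38 to 11.98 after weaning, against 8.33 to 10.32 before. After weaning that sum is carried mainly by Car3, with a mean of 10.70, which already rose by 5.06 from day 4 to day 11. Adipoq differed by 5.44, but its mean before weaning, 3.11, lies below the array medians, so the size depends on the background correction. Lep stayed at 2.59 to 2.85 against 2.41 to 2.77. Their part in the result was not tested.

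Other carriers and lipases showed the same mixture. Of 4 further binding protein genes 2 were higher and 1 lower after weaning. The bile acid carrier Fabp6 was 65.8-fold higher (6.04 ± 0.15), the retinol carrier Rbp2 2.69-fold lower (-1.43 ± 0.10) and the adipocyte carrier Fabp4 1.90-fold higher (0.93 ± 0.11). The stages overlapped for Rbp2 and Fabp4. Rbp2 was also lower in each step that Fabp1 was, by -0.82 from day 4 to day 11, -0.58 from day 11 to day 24 and -1.30 from day 24 to day 32. Of 4 genes of milk fat digestion 3 were higher and 1 lower. The pancreatic lipase relative Pnliprp2 was 17.3-fold higher (4.11 ± 0.13) and the lysosomal lipase Lipa 3.47-fold lower (-1.79 ± 0.07). The brush border phospholipase Plb1 averaged 3.76 ± 0.23 higher on the log2 scale, but the stages overlapped: its mean level was 3.75 on day 11, 9.94 on day 24 and 4.96 on day 32 (day 32 minus day 24 -4.97, adjusted p = 1.02e-07). The level before weaning was below the array medians on average, so the size depends on the background correction. Of the acinar markers of the pancreas, Clps was higher (1.65 ± 0.08) and 1 other was tested and not called. Below the filter, Cel was at 3.17 to 3.80 after weaning, against 2.94 to 3.54 before, and Ctrb1 at 3.98 to 5.07 against 4.66 to 5.86. Their part in these lipase results was not tested.

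Of 17 regulators of lipid genes 8 were higher, 6 lower and 3 not called (median -0.03). Ppard, a nuclear receptor for fatty acids, was 8.08-fold higher (3.01 ± 0.16). Plagl2, a zinc finger factor whose loss in mice impairs chylomicron release, was 5.61-fold lower (-2.49 ± 0.06); its step from day 24 to day 32 was -0.10 (adjusted p = 0.586). Creb3l3, a membrane-bound factor that in mouse liver drives apolipoprotein genes including Apoa4 and Apoc2, was 3.88-fold lower (-1.96 ± 0.08). Its step from day 11 to day 24 was -1.02 ± 0.13 (limma, adjusted p = 1.90e-06). That from day 24 to day 32 was -1.87 ± 0.13 (adjusted p = 2.41e-08). Creb3l3 was thus lower in both of the later steps, as were Fabp1, Apoa4, Apoc2 and Apoc3. Whether Creb3l3 or any other of these regulators bears on the levels of those genes was not tested.

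**Figure D5:**
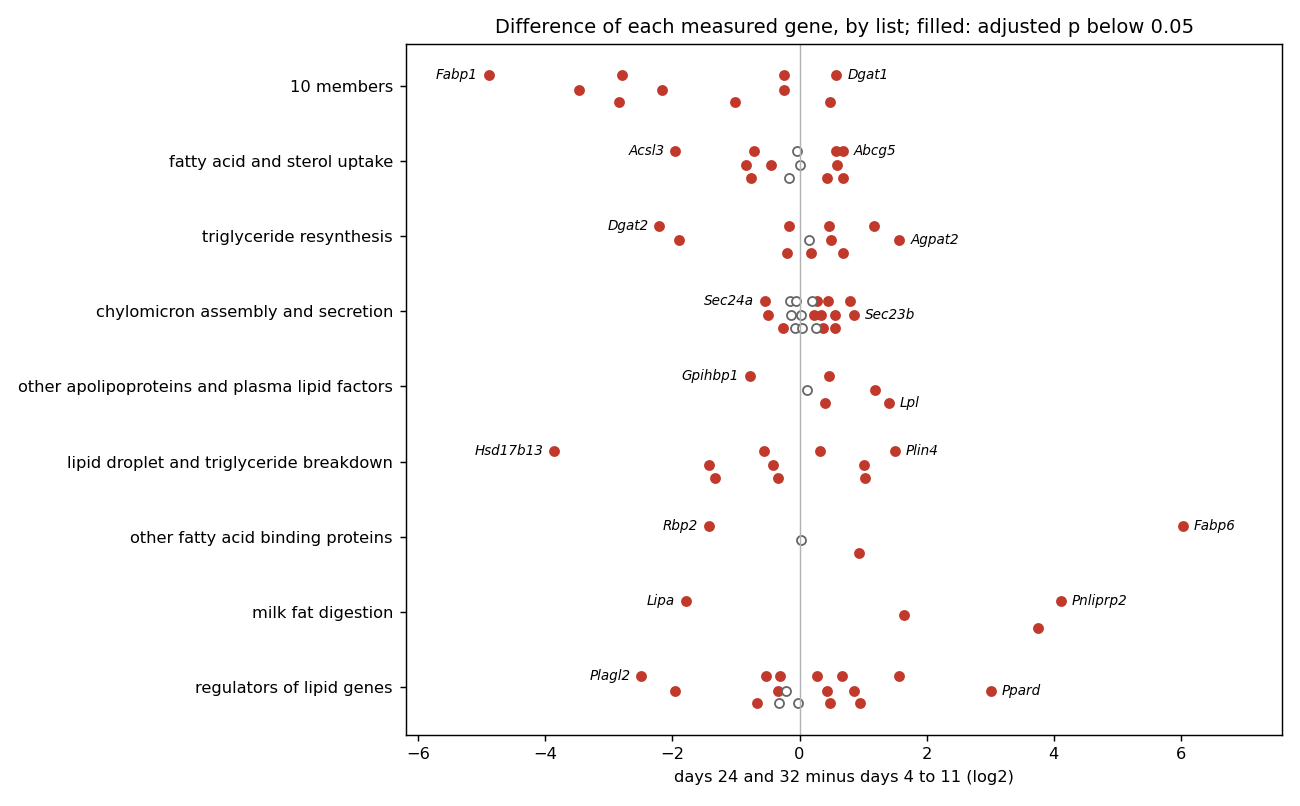
Log2 difference of days 24 and 32 minus days 4 to 11 (horizontal axis) for each measured gene of the 10 members and 8 wider lists (rows); filled points have an adjusted p below 0.05, and the lowest and highest gene of each list are labelled. The 10 members reach further to the left than to the right, and the wider lists spread to both sides of 0.

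Liver expresses most of these apolipoproteins, so hepatocyte markers were read in the same arrays. Of 4 measured, 1 was higher and 3 lower after weaning, and their summed log2 level was 10.75 to 11.28 after weaning, against 12.90 to 13.49 before. Ttr differed by -6.09 ± 0.10 and Fga by -3.21 ± 0.10, and Tat by 1.66 ± 0.17. The remaining marker, Cps1, had a mean of 12.05 on day 11, 10.82 on day 24 and 10.90 on day 32. After weaning the sum is carried mainly by Cps1. The defining liver transcript Alb was below the array medians at both stages (3.06 to 3.43 after weaning, against 2.91 to 3.62 before), as were Fgg and Ahsg, while Fgb was at 2.96 to 3.47 after weaning, against 5.06 to 6.11 before. Apoh, below the filter like these, went the other way, at 3.88 to 4.74 after weaning against 3.40 to 3.78 before. Beyond these levels, their part in the apolipoprotein results was not tested. Smooth muscle markers were at a summed 13.33 to 13.82 against 13.54 to 13.86, and of erythroid markers only Alas2 passed the filter, at a difference of -1.31.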

How the data were processed

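RNA of 18 ileum samples from individual mice was hybridized to Affymetrix GeneChips, 1 array each. The deposited values are log2 levels per probe set, made by the authors with RMA, per the submitters' processing notes, where the version is not given. RMA in general corrects background, brings arrays to a common distribution and sums up the probes of a set. The sources used here do not give the array model, and the files carry no detection calls, so the precision is limited by 3 arrays per age. Of 45101 probe sets, 34958 had 1 annotated symbol and 932 had several and were left out; 9211 were not listed in the annotation.

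A gene was represented by its brightest 1-symbol probe set among those at log2 6 or more on at least 3 arrays, giving 8631 genes. limma 3.58.1 in R 4.3.3 (lmFit, eBayes) was fitted to all genes, with the 6 ages as factor levels and 12 residual degrees of freedom. The p-values were adjusted by Benjamini-Hochberg over the whole table of genes, with calls made below 0.05. They measure the spread between individual mice. Ratios of 5 pairs were tested by an exact two-sided permutation test. The fit was tested on simulated data. Replicates are numbered in accession order and pair nothing. The titles carry numbers of unstated meaning, 1 of which is shared by a day 7 and a day 9 sample.

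The genes, the 8 wider lists, the 7 marker lists and the tests were chosen with earlier results of these data known. The rule for named genes took from each list up to 3 called genes with the largest stage difference, and the 5 genes most correlated with each of Fabp1, Apoa4, Apob, Plin2 and Dgat1. C1qa, C1qb, C1qc, Mrc1, Adgre1, Alb, Fgg, Ahsg, Fgb, Apoh, Cps1, Cidec, Lep, Cel, Ctrb1, Sec24a, P4hb and Sar1a were named after their values were seen. Promoters are from RefSeq (GRCm38.p6), where 8 of 10 genes matched; the deposited files give no coordinates. Alternatives were other filters, probe set means, quantile, median and cyclic loess normalization, eBayes options, array weights, the hybridization control group as a block or its higher arrays alone, Xist as a covariate, the compared ages alone, and leaving out single arrays.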

Additional observations from a re-analysis of the deposited data

How the results depend on the processing

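Between the stages, 8 to 10 of the 10 genes were called under the alternatives run, and the 5 ratios and the differences of Fabp1, Fabp2, Apoa4, Apob, Apoc2, Apoc3 and Plin2 kept their direction and their side of the threshold under all of them, and leaving out single arrays moved the Fabp1 difference between -5.10 and -4.68. For day 7 minus day 4 and day 9 minus day 7, where 0 genes of the 10 were called, array weights called 2 in each, and using only the arrays of the ages compared called 1 for day 9 minus day 7. The F test over all ages called 9 of the 10 genes in place of 10 with the mean of probe sets (without Dgat1) and with quantile or cyclic loess normalization, the hybridization block or Xist as a covariate (without Apoa1). Leaving out single arrays gave 9 or 10 there, and 2 to 4 called for day 11 minus day 4 and 4 or 5 for day 32 minus day 24. Directions reversed, none of them with an adjusted p below 0.05, with the mean of probe sets for Dgat1 between stages (-0.10), Dgat1 for day 24 minus day 11 (-0.00459) and Mttp for day 24 minus day 11 (-0.0250), which was -0.0281 without day 11 replicate 1 and up to 0.154 without another array. Small differences reversed without day 4 replicate 2 for Apob on day 11 minus day 4 (-0.0553, against up to 0.395 without another array), without day 4 replicate 1 for Plin2 (-0.0116, against up to 0.117), and for Fabp2 on day 32 minus day 24 with cyclic loess (0.0149) and without day 32 replicate 1 (0.00465, against down to -0.0704). The cause was not tested, apart from the dimmer probe set that the mean brings in. Over all genes, 249 were called for day 11 minus day 4, but 947 with array weights, 483 with the hybridization block, 121 at a filter of log2 8 and 52 with only those ages. For day 32 minus day 24, 1064 were called, but 577 at log2 8 and 443 with only those ages. Between stages 6293 were called, but 10248 without a filter and 2866 at log2 8. The stage split of 2682 higher and 3611 lower became 3133 and 3253 with cyclic loess and 5249 and 4999 without a filter. In the steps between adjacent early ages, array weights called 114, 207 and 354 genes, against 7, 4 and 4. The array weights did not converge to tolerance. No paired analysis was possible because the titles share only 1 number between ages (a day 7 and a day 9 sample), and what it marks is not stated. Levels near the array medians have unknown depth above background.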
